A study of Homo sapiens and Mus musculus with 47 samples.

Results

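The transcriptome of HEK293T cells given antisense oligonucleotides (ASOs) against the long noncoding RNA (lncRNA) LINC00662 was compared with that of the same cells given ASOs against either of 2 other lncRNAs, SETD5-AS1 and LINC00641. HEK293T is a human embryonic kidney line that carries the SV40 large T antigen. The comparison used 8 of the 47 samples of the series, chosen by their labels: LINC00662 ASO replicates 1 to 3, SETD5-AS1 ASO replicates 1 to 3 and LINC00641 ASO replicates 2 and 3. All 8 came from HEK293T cells given a targeting ASO, and an effect common to every targeting ASO would cancel in the comparison. The 3 libraries with the control ASO, ASOXNC23, were kept out of every test and are given as levels only. The study developed Chrom-seq, a proximity-labeling method for RNAs near a chosen histone mark, and used the ASOs to ask what the recovered lncRNAs do. The labels carry the same text on APEX2 fusion constructs, biotin-aniline and hydrogen peroxide for the ASO libraries as for Chrom-seq, and whether it applies to them was not given in the sources used here. The study's methods give 48 hours with the ASO in its chromatin and imaging assays, and poly(A)+ RNA was sequenced here. Nothing states that the replicates of a group came from separate cultures, so p-values measure the spread between these libraries, which may be technical.

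An ASO of this kind is a short DNA-based strand that pairs with a complementary RNA. RNase H1 recognizes the DNA-RNA duplex and cuts the RNA strand, and the fragments are then degraded. The enzyme is present in the nucleus, so introns of unspliced transcripts can be targets as well as mature RNA. Copies of repeated elements such as LINE-1 and Alu make up a large part of the human genome, and many lie in introns.

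The oligonucleotides are the treatments that were compared, so their sequences are shown first. The study lists 3 ASOs for LINC00662, 3 for SETD5-AS1, 2 for LINC00641 and the control ASO; which oligonucleotide, or which mixture of them, went into the sequenced cells was not given in the sources used here. All were 20 bases long, and no pair shared more than 6 bases in a row. Each is written 5′ to 3′. Capitals mark the stretch of LINC00662-ASO-2 and of LINC00662-ASO-3 that recurs most often, as its complement, in the human genome.
LINC00662-ASO-1: tgtagtctcttatctgcacc
LINC00662-ASO-2: ACTCTGTCTCAAAtaacttg
LINC00662-ASO-3: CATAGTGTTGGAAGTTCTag
SETD5-AS1-ASO-1: atcaatgaggatgtcatcac
SETD5-AS1-ASO-2: tcttgctatcatgacaatag
SETD5-AS1-ASO-3: cttacgcaacggataaagcc
LINC00641-ASO-1: gatgtggagcaacagaaatg
LINC00641-ASO-2: gatagtggtatagtaactgg
ASOXNC23: ttctccgaacgtgtcacgtt

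LINC00662 is a lincRNA gene on the minus strand of chromosome 19 (hg19, 28175488 to 28284848). LINC00662-ASO-1 paired with chr19:28284662-28284681, inside an exon of 40 of the gene's 80 annotated transcripts. LINC00662-ASO-3 paired with chr19:28281738-28281757, inside an exon of 3 of the 80. LINC00662-ASO-2 had no 20-base site in the genome, but its complement was whole in 4 spliced transcripts of LINC00662, where exons are joined. The 5 ASOs against SETD5-AS1 and LINC00641 each lay inside exons of their own target.

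Outside its target, LINC00662-ASO-3 differed from the other oligonucleotides in how often its complement occurs. The GRCh37 genome held 112 exact 20-base matches to it and 9254 matches of 18 bases or more, of which 9122 were to bases 1 to 18 of the oligonucleotide. The matched sites were not compared with a repeat annotation. The other ASOs had at most 2 full matches each, and 75 matches of 18 bases or more at the most, for LINC00641-ASO-1. LINC00662-ASO-2 had 8 matches of 18 bases or more and 125740 of 13 bases or more, most of them to its first 13 bases. The longest match of the control ASO was 14 bases.

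Of the genes with large falls, COL4A5 had 2 matches of 18 bases or more to LINC00662-ASO-3 on its own strand, SCMH1 had 4, RSRC1 and WDR41 had 5 each and DOCK3 had 7. These matches lie outside the annotated exons of the genes, in introns.

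The 8 libraries held 11619315 to 15023098 counts. The share of counts in genes spanning 100 kb or more was 14.5% to 14.6% with the LINC00662 ASO and 15.02% to 15.4% with the other two. SETD5-AS1 ASO replicate 3 stood farther from its mates than any other targeting library did within its group. Its chi-square statistic, divided by the number of genes, was 10.3 and 11.2 against them, where the lowest such pair was at 2.90. Without that library 948 genes were lower than with each of the other two ASOs and 129 higher, in place of 973 and 139. Of 10 markers chosen for the HEK293 line, 9 had at least 100 counts in each of the 8 libraries. Of 7 blood markers 6 were at 10 counts or fewer in all 8 libraries, and the leukocyte marker PTPRC had at most 2. Among 7 colon markers 5 were at 10 counts or fewer. CDX2, also of that list, had 352 to 506 counts, and EPCAM is described with the rises. Of 7 pluripotent markers 6 were at 10 counts or fewer in all 8 libraries, and DNMT3B had 897 to 1118.

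LINC00662 itself had 2.03, 1.26 and 1.56 CPM with its own ASO, where CPM are counts scaled to the same library total after TMM normalization of the 8 libraries. It had 19.8, 15.4 and 20.1 CPM with the SETD5-AS1 ASO and 18.6 and 15.6 with the LINC00641 ASO. The groups did not overlap, and the log2 fold change against the mean of the other two was −3.44 (SE 0.178, edgeR adjusted p = 2.02e-11). SETD5-AS1 had 30.1, 28.8 and 28.7 CPM with the LINC00662 ASO against 4.82, 4.33 and 4.07 with its own ASO. LINC00641 had 39.8, 33.9 and 34.6 CPM with the LINC00662 ASO against 0.933 and 1.97 with its own. These 2 differences were set by the targets of the comparison groups. TAF7, a subunit of the general transcription factor TFIID, and PGBD5, a transposase-derived gene, are examples in the study. Against the control ASO, the study shows TAF7 as raised when LINC00662 was depleted. It shows PGBD5 as activated when SETD5-AS1 or LINC00641 was depleted. TAF7 had 129 to 140.1 CPM in the LINC00662 libraries and 109 to 153 in the other 5, and PGBD5 had 17.1 to 18.8 and 12.9 to 22.3. Both ranges overlapped, and neither gene passed the test (log2 fold change 0.08, SE 0.071, edgeR adjusted p = 0.428 for TAF7, and 0.12, SE 0.132, adjusted p = 0.529 for PGBD5). Of the 13 other genes annotated within 500 kb of LINC00662, 1 had enough counts for the test, the pseudogene SLC25A1P5, and it was not called.

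More genes were lower than higher with the LINC00662 ASO. Calls needed an adjusted p below 0.05 in edgeR's quasi-likelihood test and a change of 0.75 or more on the log2 scale, in either direction. Against the mean of the other two ASOs, 1347 of 18409 tested genes were lower, 7.32% of the genes, and 438 were higher, 2.38%. Over all tested genes the median change was −0.00 (log2). Against the SETD5-AS1 ASO 1604 genes (8.71%) were lower and 464 (2.52%) higher, and against the LINC00641 ASO 1138 (6.18%) were lower and 388 (2.11%) higher. These contrasts share the LINC00662 libraries. In both single contrasts at once, 973 genes were lower, 5.29%, and 139 higher, 0.755%. The 3 LINC00662 libraries were all below the other 5 in CPM for 15.7% of all tested genes and all above them for 13.8%.

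The largest falls came in genes of unrelated roles. Ranked by the log2 fold change among well-counted genes that were lower than with each of the other two ASOs, with no overlap between the 3 and the 5 libraries, the first 12 were EDA, LINC00662, COL4A5, RSRC1, SCMH1, AC159540.1, DOCK3, WDR52, ZFPM2, WDR41, STK33 and LINC00630. Their log2 fold changes ran from −3.60 to −2.79, with SE of 0.0898 to 0.197, and their mean levels were 7.78% to 14.2% of the mean of the other 5 libraries. Of all tested genes, 611 met the same criteria. All 12 overlap another annotated gene, 5 of them on the same strand. The counting was not stated to use strand, so reads of overlapping genes on either strand cannot be told apart.

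EDA encodes ectodysplasin A, a TNF-family ligand needed for hair, teeth and sweat glands. It had 1.55, 0.699 and 1.19 CPM in the LINC00662 libraries, 16.4, 15.01 and 18.4 with the SETD5-AS1 ASO and 12.7 and 11.3 with the LINC00641 ASO. The log2 fold change was −3.60 (SE 0.197, edgeR adjusted p = 4.46e-11).

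COL4A5 encodes a type IV collagen chain of basement membranes. It had 7.70, 8.94 and 10.4 CPM in the LINC00662 libraries, 84.8, 81.5 and 87.9 with the SETD5-AS1 ASO, and 64.4 and 60.3 with the LINC00641 ASO. Every LINC00662 library lay far below every other library, with a log2 fold change of −3.01 (SE 0.0939, edgeR adjusted p = 8.61e-14).

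RSRC1, an arginine- and serine-rich protein of splicing, had 6.96, 7.47 and 7.97 CPM with the LINC00662 ASO against 53.2 to 61.2 in the other 5 libraries. SCMH1, a Polycomb group protein, had 6.28, 6.496 and 7.0 CPM against 44.2 to 64.1. Both had a log2 fold change of −2.97, with no overlap between the groups. DOCK3, an activator of the Rac GTPase known from neurons, had 6.49, 7.33 and 8.12 CPM against 49.2 to 64.5 (log2 fold change −2.89). WDR41, a partner of C9orf72 in lysosome regulation, had 12.5, 16.7 and 13.6 CPM against 93.1 to 111 (−2.86). ZFPM2 encodes a cofactor of GATA factors, STK33 a serine/threonine kinase and LINC00630 a lncRNA, with log2 fold changes of −2.87, −2.84 and −2.79. The plot of the targeted lncRNAs and the falls shows these values library by library.

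**Figure D1:**
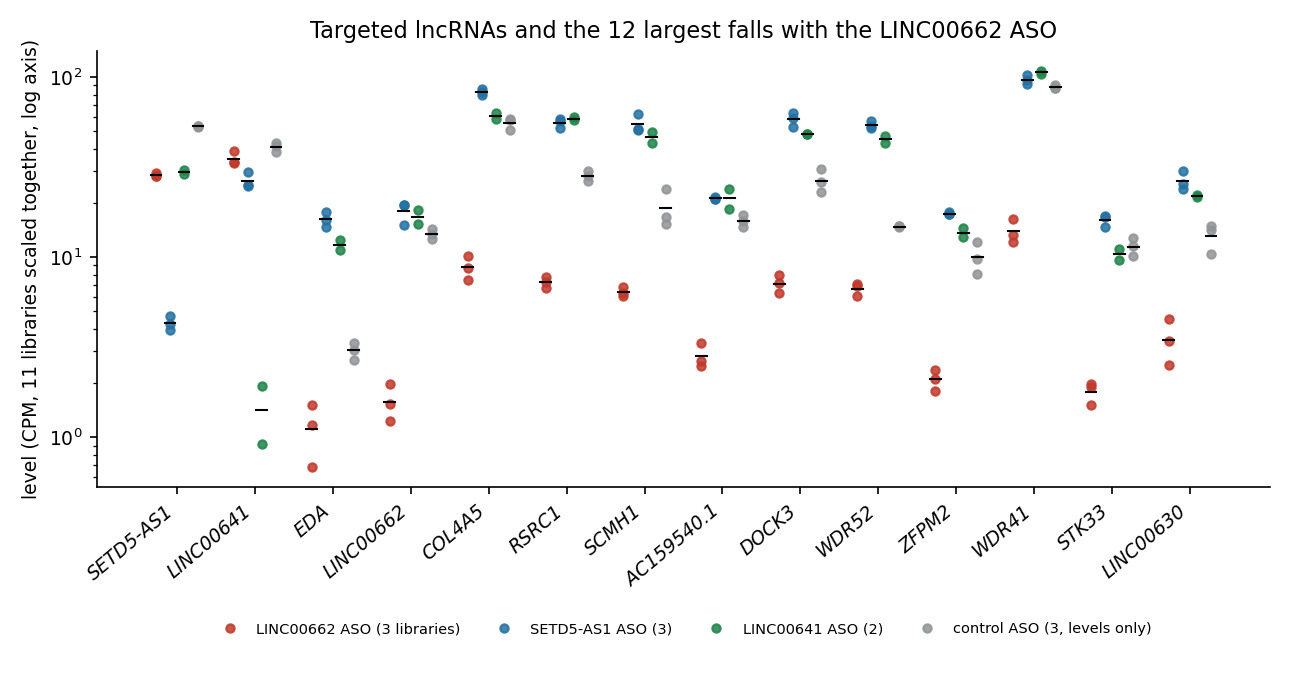
Levels of SETD5-AS1, LINC00641 and the 12 genes with the largest falls, in CPM on a log axis with the 11 ASO libraries scaled together; each point is 1 library, a bar is the group mean, and red, blue, green and gray stand for the LINC00662, SETD5-AS1, LINC00641 and control ASO. For each of the 12 genes the 3 red points lie below the points of the other 3 groups, control included.

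Scaled together with the control ASO, all 12 genes had every LINC00662 library below every control library. Over the 973 genes lower than with each of the other two ASOs, the median log2 ratio to the control was −1.003 with the LINC00662 ASO and 0.44 for the mean of the other two. All 3 LINC00662 libraries lay below all 3 controls in 776 of the 973, or 79.8%, against 32.6% of all tested genes. Control levels carry no test here. The control libraries also stood apart from all targeting libraries, with a chi-square statistic per gene of 55.3 to 70.8. Between libraries of different targeting groups it was 9.34 to 38.4.

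Many of the lower genes held a sequence that the choice of libraries did not use, and many did not. A tested gene was counted as matched when the strand it is transcribed from, read as RNA anywhere in its span, held 18 or more bases in a row complementary to LINC00662-ASO-3. Of the 18409 tested genes 1200 were matched, 6.52%. Among these, 748 (62.3%) were lower than the mean of the other two ASOs and 8 (0.667%) were higher, beside 7.32% and 2.38% of all tested genes. The 748 made up 55.5% of the 1347 lower genes. The median log2 fold change of the 1200 was −1.30 (quartiles −1.81 and −0.48), and that of the 17209 genes without such a match was 0.02, with 599 (3.48%) lower and 430 (2.499%) higher. Without LINC00662 itself the share was 62.3% of 1199. The 3 LINC00662 libraries lay below the other 5 in 816 matched genes, 68.0%, beside 15.7% of all tested genes.

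**Figure D2:**
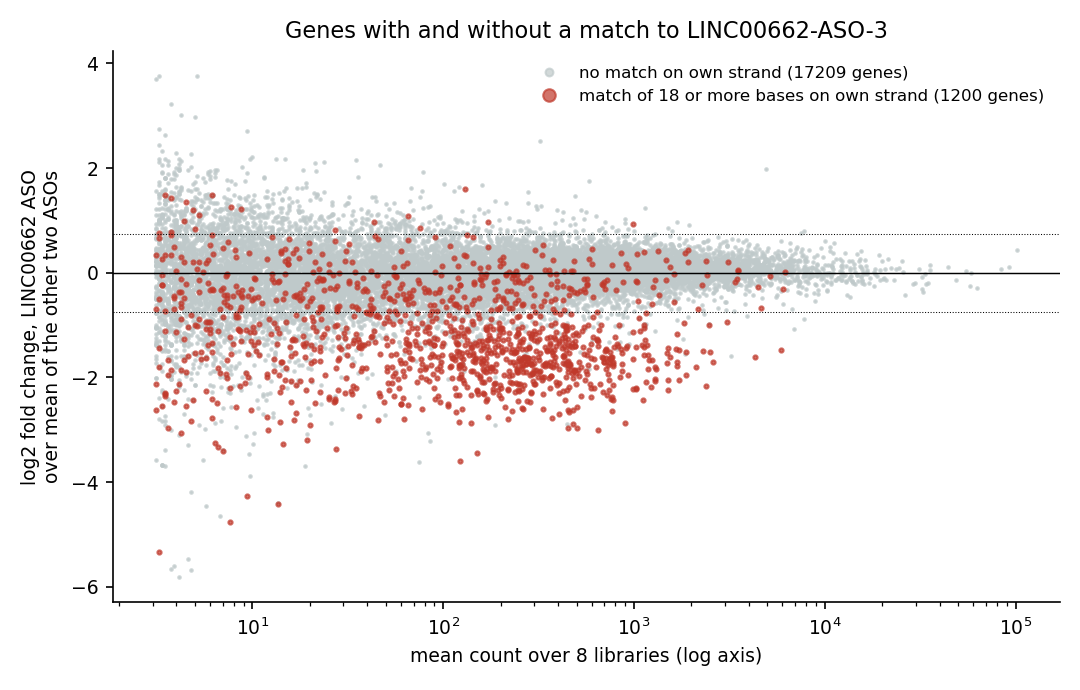
Log2 fold change of each tested gene, LINC00662 ASO over the mean of the other two ASOs, against its mean count over the 8 libraries on a log axis; red points are the 1200 genes with a match of 18 or more bases to LINC00662-ASO-3 on their own strand, gray points the other 17209, and dotted lines mark 0.75 in either direction. Most red points lie below the lower line, around a median of −1.30, while the gray cloud is centered near 0.

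The matched genes were low against both comparison groups. Their median log2 fold change was −1.34 against the SETD5-AS1 ASO and −1.27 against the LINC00641 ASO, 2 contrasts that share the LINC00662 libraries, and the median difference between SETD5-AS1 and LINC00641 ASO in the same genes was 0.07. Of the 973 genes lower than with each of the other two ASOs, 665 (68.3%) were matched. Of the 139 genes higher than with each, 6 (4.32%) were matched, and of the 17297 genes in neither set, 529 (3.06%). Of the 12 largest falls 10 carried a match. The summed level of the matched genes without LINC00662 was 16469, 16821 and 17737 CPM in the 3 LINC00662 libraries, 33514 to 36045 in the other 5 and 28380 to 29739 with the control ASO. No LINC00662 library reached the lowest of the other 8.

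The 2 strands differed. In 418 genes the match lay only on the strand opposite to the transcript, so that the transcript carries the letters of the ASO itself. Their median log2 fold change was 0.09, with 26 (6.22%) lower and 19 (4.55%) higher. In the 16791 genes with a match on neither strand the median was 0.02, with 3.41% lower.

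Genes with longer matches had lower medians, with exceptions at 16 and 19 bases. By the longest run on the gene's own strand, the median log2 fold change was 0.03 in 16481 genes with a run under 12 bases, −0.01 at 12 bases, −0.08 at 13, −0.46 at 14 and −0.55 at 15. It was −0.29 at 16 bases in 30 genes and −0.89 at 17 bases in 25. At 18 bases it was −1.30 in 1180 genes, at 19 bases −0.36 in 2 genes, and at the full 20 bases −2.05 in 18. The steps from 15 to 16 and from 18 to 19 bases ran against the order, and the groups at 14, 16, 17, 19 and 20 bases are small. On the other strand the medians stayed between −0.29 and 0.10, and the genes there with 18 bases include those that also carry a match on their own strand.

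**Figure D3:**
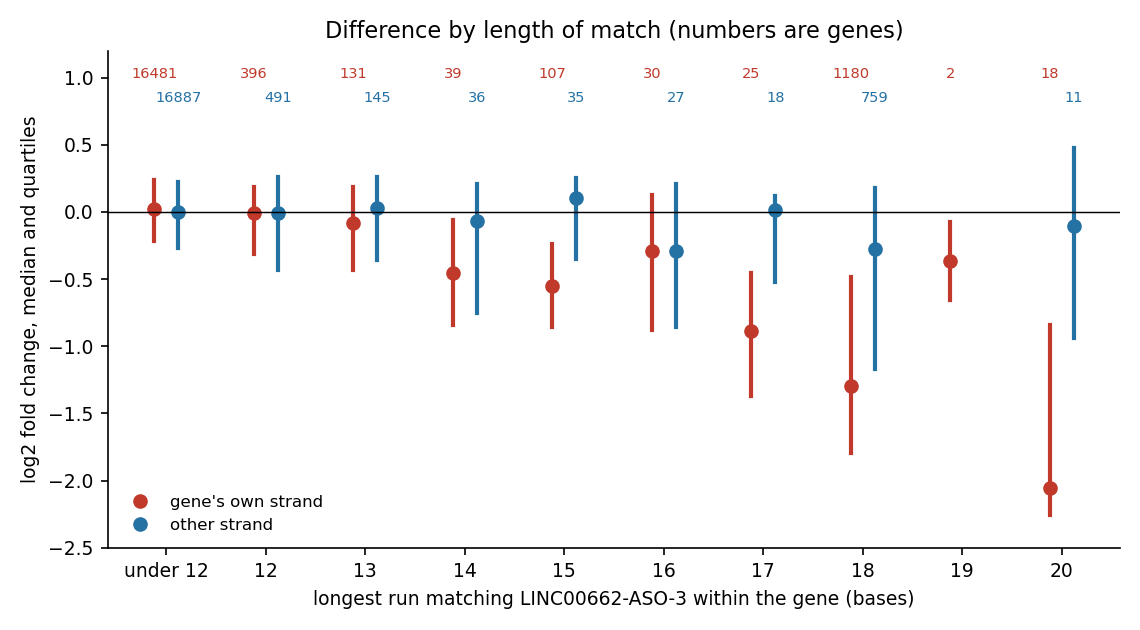
Median (point) and quartiles (line) of the log2 fold change, LINC00662 ASO over the mean of the other two ASOs, of genes grouped by their longest run matching LINC00662-ASO-3; red is the gene's own strand, blue the other strand, and the colored numbers above give the genes in each group. The red medians move from 0.03 under 12 bases to −1.30 at 18 and −2.05 at 20, and the blue ones stay above −0.3.

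Matches fall more often in long genes, so the genes were also split by span. The median span was 208 kb for matched genes and 24.2 kb for the rest. Among genes of up to 50 kb, 58 of 79 matched genes (73.4%) were lower, with a median log2 fold change of −1.52, against 3.23% of the unmatched. Between 50 and 100 kb the share was 69.6%, between 100 and 200 kb 65.8%, and between 200 and 500 kb 63.6%. Over 500 kb it was 43.1% of 202 genes, with a median of −0.74. Over the same span classes 3.16% to 9.85% of the genes matched only on the other strand were lower, and 3.23% to 4.80% of those with no match.

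**Figure D4:**
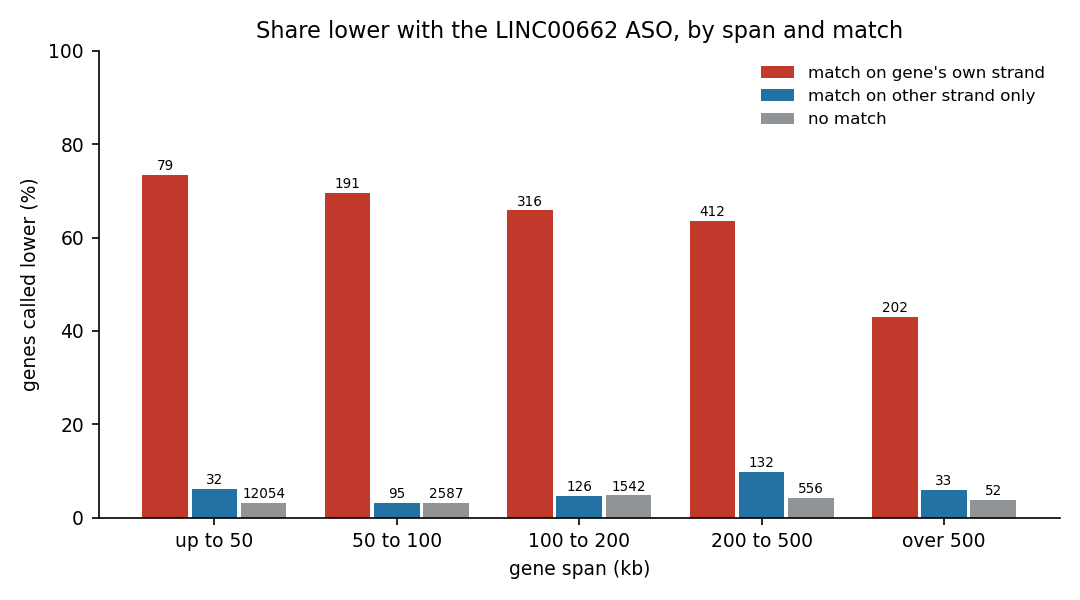
Share of genes called lower with the LINC00662 ASO than the mean of the other two ASOs, in percent, by gene span in kb; red bars are genes matched on their own strand, blue bars genes matched on the other strand only, gray bars genes with no match, and the number over a bar is its number of genes. The red bars run from 73.4% in the shortest genes to 43.1% in the longest, and no blue or gray bar reaches 10%.

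The medians moved less with the number and the place of the matches, other than near the 3′ end. Genes with 1 match had a median log2 fold change of −1.27, those with 2 matches −1.42 and those with 3 or more −1.40. Among the genes with 1 match, the median was −1.43 where it lay in the first 25% of the gene, −1.31 from 25% to 50%, −1.25 from 50% to 75%, −1.22 between 75% and 90% of the gene, and −0.78 in the last 10%, in 43 genes. The share called lower was 29.5% of matched genes with a mean of up to 20 counts, 61.3% with 20 to 100, 77.1% with 100 to 500 and 70.2% over 500. Among protein-coding genes with a match 665 of 998 (66.6%) were lower, among lincRNA genes 33 of 65 (50.8%), and among antisense genes 17 of 73 (23.3%), with a median log2 fold change of −0.60.

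Nearly all matches were intronic. Of the matched genes with exon annotation, 1173 held the match only outside exons, with 62.7% lower. In 5 tested genes a match lay in an exon. LINC00662 and ORC4, a subunit of the origin recognition complex, were lower. ORC4 had 9.26, 12.6 and 10.4 CPM against 33.9 to 39.4 in the other 5 libraries (log2 fold change −1.74, SE 0.102, edgeR adjusted p = 1.17e-10). TMEM45A, C4orf32 and PRKG1-AS1 were at −0.37, −0.30 and −0.84 on the log2 scale and did not pass the test.

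Of the 18 tested genes with a match to all 20 bases, 13 were lower, each also against both single groups. BCKDHB, a subunit of the enzyme that degrades branched-chain amino acids, had 3.31, 6.99 and 8.27 CPM against 34.2 to 41.9 (log2 fold change −2.60, SE 0.164, edgeR adjusted p = 3.18e-10). MTERF, a mitochondrial transcription termination factor, had a full match and 15.3 to 17.8 CPM against 13.5 to 16.2, ranges that overlap, with a log2 fold change of 0.18 (adjusted p = 0.2).

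The matched genes also lay below the control ASO libraries with the LINC00662 ASO and above them with the other two. In genes of 50 kb or more with a mean of at least 20 counts, the 894 matched genes had a median log2 ratio to the control of −0.76 with the LINC00662 ASO, 0.43 with the SETD5-AS1 ASO and 0.36 with the LINC00641 ASO. For the 4205 genes with no match the ratios were 0.25, 0.22 and 0.22, and for 309 genes matched only on the other strand 0.35, 0.33 and 0.28. The control libraries had a smaller share of counts in genes over 100 kb, 11.3% to 11.57%. That share and the ratios above 0 in long genes of all 3 targeting groups come from the same counts, and their cause was not tested. All 3 ratios share the same control libraries.

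Genes with matches to the other oligonucleotides are read here against the 16481 with no run for LINC00662-ASO-3, of which 3.05% were lower. Among genes with no run of 12 bases for LINC00662-ASO-3 on their own strand, 8245 held 13 or more bases complementary to LINC00662-ASO-2, with a median log2 change of 0.05 and 2.78% lower, and 348 held 16 or more, with 0.07 and 3.45% lower. For LINC00662-ASO-1, 101 such genes held 13 or more bases, and 0.990% were lower. LINC00641-ASO-1 had 20 tested genes with 18 or more bases, genes matched by LINC00662-ASO-3 included, with a median of −0.06 and 3 lower in the same contrast. Whether pairing of an oligonucleotide with these RNAs has a part in the differences was not tested.

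A set of 308 genes was lower than with each of the other two ASOs without a match of 18 bases. Of these, 76 had a run of 12 to 17 bases on their own strand and 232 had none of 12. Their 3 LINC00662 libraries lay below the 3 controls in 61.0%, beside 32.6% of all tested genes. AC159540.1, a lincRNA with no run of 12 bases, had 2.57, 2.72 and 3.43 CPM against 18.9 to 24.5 in the other 5 libraries (log2 fold change −2.90). WDR52, a protein of cilia and flagella, had a longest run of 15 bases and 6.28, 7.05 and 7.22 CPM against 44.2 to 58.0 (−2.89). Among the 232 genes with no run, 47.0% held 13 or more bases complementary to LINC00662-ASO-2, beside 50.03% of all genes with no run.

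The rises were fewer and smaller than the falls. By the same ranking the 12 largest were SLC3A2, CGA, CCDC64, LRRC4, SPOCK1, BATF3, EPCAM, NR4A2, TCHH, NR4A3, CYR61 and EML6, with log2 fold changes of 1.98 to 1.204, SE of 0.0686 to 0.193 and mean levels 3.90 to 2.30 times those of the other 5 libraries. Of all tested genes 46 met the criteria. SPOCK1, a secreted proteoglycan, is the only one of the 12 with a match to LINC00662-ASO-3, at 14.1 to 18.5 CPM against 4.49 to 6.42.

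SLC3A2 encodes the heavy chain of several amino acid transporters and is induced by the transcription factor ATF4. It had 809, 619 and 568 CPM in the LINC00662 libraries, 201, 173 and 164 with the SETD5-AS1 ASO, and 155 and 161 with the LINC00641 ASO. The groups did not overlap, and the log2 fold change was 1.98 (SE 0.093, edgeR adjusted p = 6.09e-12). With the 11 libraries scaled together its mean was 649 CPM in the LINC00662 libraries, 175 and 154 for the other two ASOs and 1100.1 for the control ASO, so the LINC00662 group lay between them.

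CGA, the common alpha chain of the glycoprotein hormones, had 15.6, 12.4 and 10.8 CPM against 3.11 to 5.16 in the other 5 libraries (log2 fold change 1.69). TCHH, trichohyalin of the hair follicle, had 32.4 to 37.6 CPM against 13.2 to 17.5 (1.27). EML6, a microtubule-associated protein, had 40.1 to 49.4 CPM against 18.7 to 20.3 (1.204). With the 11 libraries scaled together the control means of these 3 genes were 3.19, 13.97 and 14.9 CPM, near or below those of the other two ASOs. EPCAM, an epithelial adhesion protein, had 21.2, 23.7 and 21.7 CPM against 6.51 to 9.35 (1.37), and its control mean on the scaling of 11 libraries was 16.5 CPM. CYR61, a matrix protein induced by YAP, had 59.3 to 62.2 CPM against 23.9 to 29.9 (1.21). With the 11 libraries scaled together its mean was 58.9 CPM in LINC00662 libraries and 66.4 for the control ASO. CCDC64, a dynein adaptor, had 20.3, 20.8 and 20.3 CPM against 5.21 to 8.12 (1.68), and BATF3, an AP-1 family factor, had 20.7, 39.3 and 43.0 against 8.98 to 19.03, with replicate 1 close to the highest of the other libraries (1.53). The orphan nuclear receptors NR4A2 and NR4A3 had 21.9 to 30.7 CPM against 7.04 to 14.6 (1.33) and 16.2 to 20.5 CPM against 5.61 to 9.78 (1.21).

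**Figure D5:**
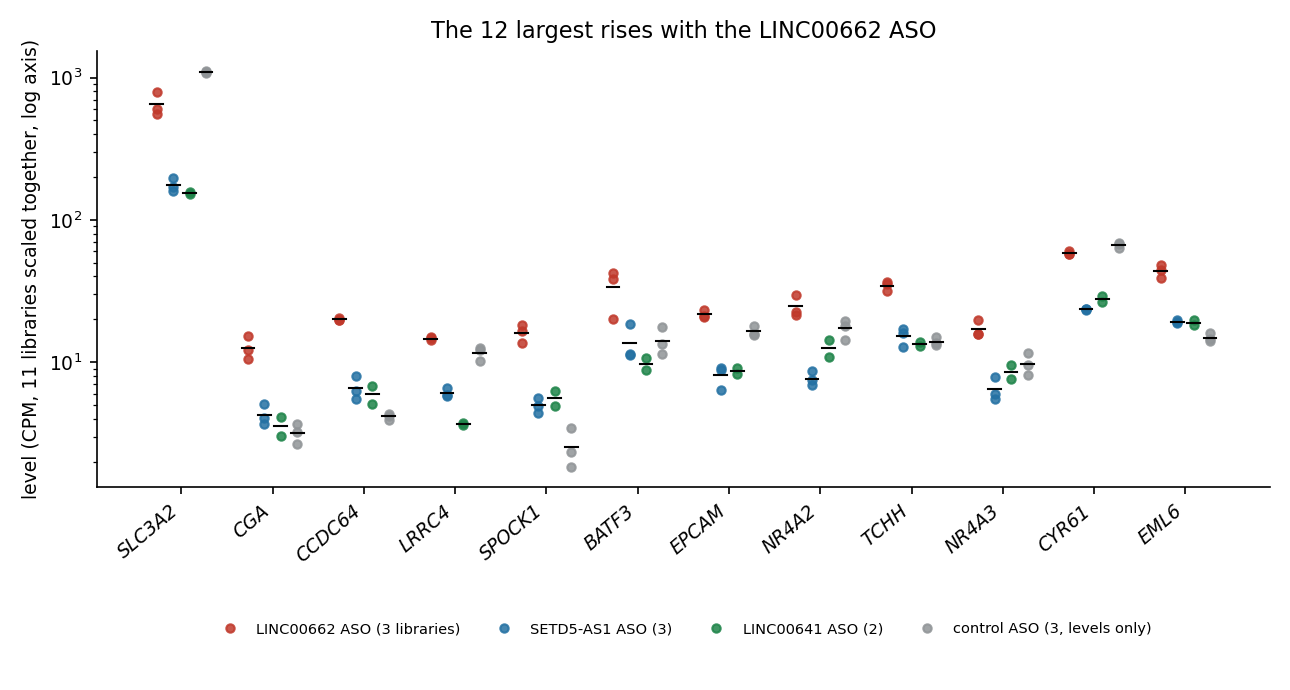
Levels of the 12 genes with the largest rises, in CPM on a log axis with the 11 ASO libraries scaled together; each point is 1 library, a bar is the group mean, and the colors are those of the plot of the falls. The 3 red points lie above the blue and green points of each gene, and the gray control points lie above the red ones for SLC3A2 and, by less, for CYR61.

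Over the 139 genes higher than with each of the other two ASOs, the median log2 ratio to the control was 0.60 with the LINC00662 ASO and −0.38 for the mean of the other two. All LINC00662 libraries lay above the control libraries in 87 of them (62.6%), against 26.8% of all tested genes, and below in 13. Of the 139, 106 were protein-coding, 76.3% beside 77.3% of all tested genes.

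The immediate early genes, transcription factors and regulators induced within minutes of a stimulus, were measured as a list of 20. All 20 were tested, 6 were higher than the mean of the other two ASOs and none was lower, beside 2.38% and 7.32% of all genes, and the list's median log2 fold change was 0.41. No member carried a match to LINC00662-ASO-3. NR4A1, an orphan nuclear receptor, had 78.0, 58.7 and 52.6 CPM with the LINC00662 ASO against 23.2 to 34.8 in the other 5 libraries (log2 fold change 1.16, SE 0.103, edgeR adjusted p = 4.5e-08). JUNB, an AP-1 subunit, had 16.8 to 19.98 CPM against 8.87 to 11.5 (0.89), and FOSB, its partner, 5.21 to 9.19 against 2.57 to 4.67 (1.03). EGR2, a zinc finger factor, was at 1.12 to 2.57 CPM against 0.325 to 1.10 (1.61). These 4 were higher than with each of the other two groups.

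EGR1 and EGR3, of the same factor family, were higher than the mean but not than with each group. EGR1 had 11.8, 9.85 and 6.93 CPM in the LINC00662 libraries, 2.37, 2.17 and 1.71 with the SETD5-AS1 ASO, and 7.16 and 7.89 with the LINC00641 ASO, so the LINC00662 and LINC00641 libraries overlapped. With the 11 libraries scaled together, the list's members summed to between 899 and 998 CPM in LINC00662 libraries and between 909 and 1010 in control libraries. The SETD5-AS1 libraries lay lower, between 742 and 812, and the LINC00641 libraries higher, between 1299 and 1368. JUN, an AP-1 subunit that was not called, made up most of the sum, with a mean of 512 CPM in LINC00662 libraries, 448 and 902 for the other two ASOs and 268 for the control ASO. The 6 called members all had a lower mean with the LINC00662 ASO than with the control ASO on the same scaling. EGR1 was at 9.29 against 44.7 CPM, FOSB at 6.65 against 38.9 and EGR2 at 1.83 against 4.599. EGR3 was at 2.42 against 7.47, NR4A1 at 61.5 against 71.6 and JUNB at 18.25 against 19.8.

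ATF4, the main factor of the integrated stress response, drives amino acid transport and synthesis. Of 22 listed targets 20 were tested, 3 were higher and none lower, beside 2.38% and 7.32% of all genes, and the median log2 fold change was 0.23. Of the 3 calls, 1 was lost without LINC00662 ASO replicate 1 and another without replicate 2. SLC3A2 and CHAC1, a glutathione-degrading enzyme, were higher than with each group. CHAC1 was low, at 1.96, 1.19 and 1.04 CPM against 0.389 to 0.851 (log2 fold change 1.46), and its call was lost without LINC00662 ASO replicate 1 (1.13, adjusted p = 0.0886). CEBPB, a stress-induced transcription factor, had 4.12 to 8.80 CPM against 2.33 to 5.88, ranges that overlap; its log2 fold change was 0.88, and 0.61 with an adjusted p of 0.0603 without LINC00662 ASO replicate 2. Without SLC3A2 the list's sum lay between 1592 and 1675 CPM in LINC00662 libraries, between 1462 and 1485 in SETD5-AS1 libraries and between 1589 and 1685 in LINC00641 libraries, and reached 2432 to 2551 in control libraries, all scaled together. The LINC00662 and LINC00641 ranges overlapped, below the control.

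In the heat shock, lysosome and p53 lists 1 gene each was called, where 2.38% of all tested genes were higher and 7.32% lower. HSPA1A, an inducible HSP70 chaperone with a near-identical neighboring copy that can share its reads, was the only called member of 17 heat shock genes, at 14.0, 21.8 and 12.1 CPM against 5.80 to 10.3 (log2 fold change 1.09). LAMP1, a lysosomal membrane protein, was the only 1 of 21 lysosomal and Rag GTPase genes, at 130.3, 152 and 199 CPM against 90.1 to 94.9 (0.80), and had a log2 fold change of 0.62 without LINC00662 ASO replicate 3. Of 19 tested p53 targets only ZMAT3, an RNA-binding target that carries a match, was lower, and none was higher.

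In 28 lists of pathways and gene families, 18 calls were higher and 28 lower, and 17 of the 28 lower calls were in genes with a match, beside 55.5% of all 1347 lower genes. Over all tested genes 2.38% were higher and 7.32% lower. Among the chromatin regulators of the marks that the study labeled, ATRX was the only 1 of 22 H3K9 methylation genes to be lower, at 138 to 164 CPM against 249 to 351 (log2 fold change −0.94). KDM6A, a demethylase of H3K27, was the only 1 of 22 Polycomb genes, at 9.90 to 12.1 CPM against 33.4 to 45.2 (−1.77). TAF4B was the only 1 of 16 TFIID subunits, at 17.3 to 19.4 CPM against 35.1 to 53.7 (−1.27). Each of these 3 genes was also the only matched gene of its list.

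The remaining lists are taken in turn, to be read beside the 2.38% of all tested genes that were higher and the 7.32% that were lower. OAS3, a double-stranded RNA sensor, was the only matched gene of 19 tested nucleic acid sensing and interferon-stimulated genes, at 3.99 to 4.54 CPM against 20.95 to 23.8 (log2 fold change −2.39, SE 0.117, edgeR adjusted p = 1.06e-11). DDX60 and TMEM173 were also lower than the mean, without a match and not against both groups. Among 28 replication and mitosis genes the only calls were TYMS, thymidylate synthase, with 37.8 to 52.8 CPM against 139 to 182 (−1.72), and POLA1, DNA polymerase alpha, with 50.9 to 57.2 CPM against 135 to 182 (−1.53), the 2 matched genes of the list. In the list of PI3K, RAS and scaffold genes, the adaptor GAB1 and the kinase BRAF were lower, both with a match, at log2 fold changes of −1.67 and −1.02.

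Of 179 tested zinc finger genes of chromosome 19, 4 were higher and 4 lower, beside 2.38% and 7.32% of all tested genes. ZNF227, ZNF420 and ZNF567 were lower with a match, ZNF227 at 3.07 to 4.05 CPM against 15.9 to 19.4 (log2 fold change −2.31). ZNF599 was lower without a match. In 21 cholesterol and fatty acid synthesis genes, NSDHL, a sterol dehydrogenase that carries a match, had 7.54 to 9.76 CPM against 29.3 to 32.6 (−1.91). HMGCS1, the synthase ahead of HMG-CoA reductase, had no match and 191 to 223 CPM against 272 to 306 with the SETD5-AS1 ASO and 442 to 455 with the LINC00641 ASO (−0.83). In that list 19 of 21 members had log2 fold changes below 0, with a median of −0.36, and only NSDHL and HMGCS1 were called. Summed over the list, and scaled over all 11 libraries, LINC00662 libraries held 3287 to 3367 CPM, above control libraries at 2805 to 2936. SETD5-AS1 libraries held 3932 to 3952 and LINC00641 libraries 4381 to 4660. On that scaling HMGCS1 had a mean of 197 CPM in LINC00662 libraries beside 185 in control libraries. NSDHL was below the control, at 8.13 beside 37.2.

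Further lists had few or no calls, where 2.38% of all tested genes were higher and 7.32% lower. Among 69 tested nuclear-encoded oxidative phosphorylation genes NDUFS4, with a match, and ATP5S, without, were lower, and of 13 mitochondrially encoded genes MT-ND1 was higher at 710.2 to 805 CPM against 351 to 592 (log2 fold change 0.75, at the threshold). Of 10 tested lncRNAs named by the study, AC004158.2, with a match, and H19, without, were lower (−2.20 and −0.83). CDH8 (matched) and CDH15 were lower and CDH4 higher among 18 cadherins, PCDHB15 was lower among 7 clustered protocadherins, and HOXA10 was lower among 24 HOX genes; HOXA10 and PCDHB15 were low in every library and lost their calls in several settings. HIST1H4A, a histone gene with near-identical copies, had no count with the LINC00662 ASO, 31 with the SETD5-AS1 ASO and 7 with the LINC00641 ASO; with 3 counts over the LINC00662 group as the floor, it was at least 12.2-fold and 3.70-fold lower. Of the 31 counts 21 were in SETD5-AS1 ASO replicate 3, and without that library, a setting chosen after seeing the data, the first bound was 5.90-fold. Cytosolic ribosomal proteins, RNase H and RNA decay genes, small nucleolar RNA host genes, glucocorticoid-induced genes and the HEK293, pluripotent and blood markers had 0 calls by edgeR and 0 by DESeq2, with 51 of their 131 tested members at an unadjusted edgeR p under 0.05. Over all tested genes, 7701 of 18409 were under that p in the same contrast. Ribosomal protein genes lay below 0 in 68 of 79 members, beside 9231 of all 18409 tested genes, with a median log2 fold change of −0.13 and a lowest value of −0.61. With the 11 libraries scaled together, they summed to 42153 to 45003 CPM in LINC00662 libraries and 44510 to 52129 in SETD5-AS1 libraries, ranges that overlap. The sums were 47599 to 49548 in LINC00641 libraries and 54115 to 60584 in control libraries.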

How the data were processed

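Counts per gene in 11 ASO libraries were deposited by the authors as a single table. Per the labels' processing notes, reads passed fastp 0.23.1, HISAT2 2.1.0 and featureCounts 2.0.1, with hg19 and GENCODE 19 genes; strand setting was not given in the sources used here. The table's gene length equals the whole gene span for all 57820 genes, as when reads are counted over introns too. Genes with summed counts over 24 in 8 libraries were fitted with edgeR 4.0.16 (TMM, quasi-likelihood, 3 groups, no covariates; R 4.3.3), with Benjamini-Hochberg adjustment over 18409 genes. DESeq2 1.42.0, other scalings and filters, a replicate block and left-out libraries were alternatives. On simulated counts for 18179 genes, 199 of 200 genes changed by 1.5 (log2) were recovered in the first contrast. The changed genes had a mean of at least 20 counts, and the other groups were simulated without a difference between them. Recovery of smaller changes, or in genes with fewer counts, was not simulated. Named genes were the targets, TAF7, PGBD5, the 12 largest rises and falls called in both contrasts (mean of 100 counts, no overlap), up to 4 called members per list, neighbors of LINC00662 and genes matched at 20 bases or in exons. Exact matches of 12 or more bases to each ASO's complement were found in GRCh37 and placed in gene spans and GENCODE 44 (lifted) exons, which 17880 tested genes had; ASO sequences are the study's. The comparison, lists and tests were chosen with earlier results of these data known; the matched-gene groups were defined after seeing the data. Columns of other tables were not used. Some genes and sequences are not reported here.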

Additional observations from a re-analysis of the deposited data

How the results depend on the processing

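The 8 counts of higher and lower genes and the share of matched genes that were lower stayed within 1.5 times of their values in all 140 recomputations. Genes lower than the mean of the other two ASOs numbered 1190 to 1384 and higher 317 to 462; lower than with each 847 to 1002 and higher 94 to 153. Leaving out 1 library gave 94 to 146 for the last, with 94 without LINC00662 ASO replicate 1; without SETD5-AS1 ASO replicate 3 it was 129 higher and 948 lower. DESeq2 called 344 higher and 1218 lower, all 1218 among those of edgeR. The share of matched genes lower was 60.4% to 67.2% across fits and filters, 61.3% with a minimum of 16 bases and 72.2% with all 20; these match minimums were chosen after seeing the data.

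Replicate numbers did not pair the samples: correlations of same-numbered deviations ran from −0.12 to 0.14. With the replicate block 384 genes were higher and 1319 lower than the mean, and 120 higher and 942 lower than with each; PCDHB15, HOXA10 and MT-ND1 lost their calls. Each LINC00662 library correlated best with the SETD5-AS1 library of its own number, but the LINC00641 libraries did not follow.

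Of 1915 recomputed values of 120 named genes, none reversed, 43 lost and 1 gained a call. SETD5-AS1 and LINC00641 lost theirs with the 5 libraries as 1 group (0.97 and 1.11). PCDHB15, HOXA10, TMEM173 and MT-ND1 lost theirs in several settings, DDX60, H19, LAMP1 and ZNF599 without LINC00662 ASO replicate 3. The cause was not tested. Where 1 LINC00641 library was left, it was assumed to vary like the other groups. Depth limits calls in genes under 20 counts.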
